A study of Mus musculus with 4 samples.

Results

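The genes described here are *Hif1a*, *Egln1*, *Egln3*, *Vegfa*, *Adm*, *Pdk1*, *Bnip3*, *Car9*, *Ndrg1* and *Ankrd37*, a named set of 10 genes of the cellular response to low oxygen. They were taken by symbol from the expression table of each library, and all 10 were found among its 21091 entries. Of these, 9 reached a mean of 1 FPKM (fragments counted per kilobase of transcript and scaled to library depth) over the libraries, which was the minimum for counting a ratio, as did 12449 of all entries. *Car9* stayed below it and is described by its levels.

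RNA was sequenced from neural progenitors of mouse embryonic brain, taken from C57BL/6 embryos at embryonic day 11 (E11) or 14 (E14) and grown for 3 days as floating neurospheres in serum-free medium with EGF and FGF. The *Stat3* cKO cells came from Nestin-Cre; *Stat3*-flox/flox embryos, in which Cre is driven by the rat Nestin promoter and enhancer and removes exons that encode the SH2 domain of STAT3. The control cells (CTL) are labelled wild type, while the animal methods of the study name Nestin-Cre; *Stat3*-flox/+ animals as controls, so it is not settled whether the CTL libraries carried Cre. The 2 genotypes at 2 stages made 4 groups of 1 library each, and wherever 4 values stand in a row they are those of CTL and *Stat3* cKO at E11 and then of CTL and *Stat3* cKO at E14. There were therefore no replicates, no spread between replicates and no test, and every difference given here is between libraries. The oxygen level of the cultures and the number of embryos pooled in a library are not given in the sources used here.

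Hypoxia-inducible factor (HIF) is a dimer of an oxygen-regulated alpha subunit, such as the product of *Hif1a*, and a stable beta subunit, ARNT or ARNT2. When oxygen is present, prolyl hydroxylases of the EGLN family mark the alpha subunit for the VHL ubiquitin ligase and the proteasome, and when oxygen falls the subunit accumulates and switches on genes for blood vessel growth, glycolysis and mitochondrial turnover. The embryonic brain begins without vessels of its own, and its progenitors release VEGFA that guides the vessels growing in. HIF-1 alpha is regulated largely as a protein, which was not measured, so the *Hif1a* transcript is not a readout of HIF activity.

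The depth estimated from the value of 1 fragment was 3.83e+07 to 5.20e+07 fragments a library, and the summed FPKM ranged from 806587 to 1.46e+06. The highest depth, that of E11 CTL, rested on 29 values, against 80 to 109 in the other libraries. Fragment counts and counting intervals that use E11 CTL are therefore less certain. All 10 neural progenitor markers were at 1 FPKM or more in every library, as the labelled cell type requires. Endothelial markers summed to between 1.28 and 3.41 FPKM over 6 genes, of which at least 5 were under 1 FPKM in each library, and microglia and macrophage markers to between 1.01 and 3.58. Markers of mesenchymal cells did not stay low: the 6 genes summed to 1185 FPKM in E11 CTL and 1092 in E11 *Stat3* cKO, against 12.8 and 8.70 at E14. None of the 6 was under 1 FPKM at E11, 4 (CTL) and 3 (*Stat3* cKO) were at E14, and none was at 0. Progenitor markers summed to 1495 and 1688 FPKM at E11 and to 7332 and 7979 at E14. Most of the E14 sums was *Fabp7*, at 516, 594, 5245 and 5929 FPKM. Of the 10 progenitor markers, 6 were higher and 4 lower at E14 in each genotype. Neuron markers summed to 675 and 708 and then to 998 and 852, and the 4 erythroid markers found as entries of their own to 25.4 and 3.63 and then to 2.02 and 1.13. The sums of these lists thus moved with the comparisons of the stages, and the part of the lists in those results was not tested. *Stat3* itself was at 7.41, 6.74, 27.6 and 9.55 FPKM. The *Stat3* cKO library was at 0.346 times CTL at E14 but at 0.911 times CTL at E11. The study places the knockout in progenitors of this mouse line by E14. A clear loss of the *Stat3* transcript was thus not seen at E11, and every E11 comparison rests on the label of the library. The E11 ratios are therefore not shown to follow from loss of *Stat3*.

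The 10 genes did not move as 1 block. Between E11 and E14, *Vegfa*, *Bnip3*, *Pdk1*, *Ankrd37* and *Car9* were lower at the later stage in both genotypes, *Ndrg1* and *Egln3* were higher in both, *Hif1a* differed by at most about 1.08-fold, and *Adm* and *Egln1* were higher at E14 in CTL but lower in *Stat3* cKO. Between the genotypes most differences were smaller. None of the 9 counted genes differed by 2-fold or more at E11 (2-fold higher or lower means at least 2-fold throughout), and at E14 *Adm* alone did, with *Stat3* cKO 3.88-fold below CTL. Of all counted genes, 0.209% were 2-fold higher and 1.12% lower at E11, and 1.85% and 1.69% at E14.

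**Figure D1:**
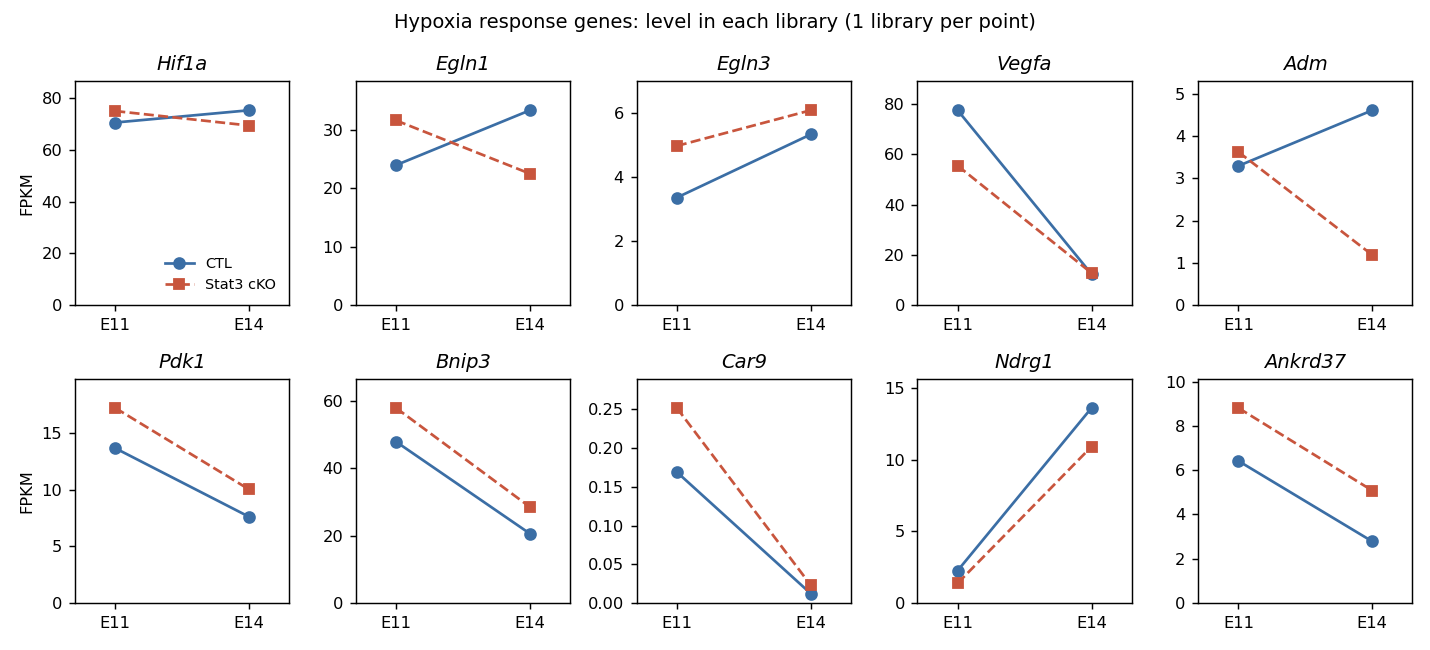
Level of each of the 10 genes in FPKM (linear axis from 0, scaled to each gene) at E11 and E14, with CTL as circles and *Stat3* cKO as squares. Each point is 1 library and there are no error bars. *Vegfa* dropped from 77.6 and 55.5 to 12.4 and 12.8, *Ndrg1* went from 2.26 and 1.38 to 13.6 and 10.9, and the lines of *Hif1a*, *Egln1*, *Vegfa* and *Adm* crossed.

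Promoter sequences are shown for 4 chosen genes: *Bnip3*, *Ankrd37* and *Pdk1*, which were lower at E14 in both genotypes, and *Adm*, which differed most between the genotypes. The windows of *Vegfa*, which was lower at E14 by more than these, are not shown, and their matches are counted below. RefSeq windows on GRCm38.p6 were available for 9 of the 10 genes, and 11 windows in all since *Pdk1* and *Vegfa* have more than 1 start. The 250 bases before each start are given 5′ to 3′ on the strand of the gene, and capitals mark ACGTG or GCGTG, the core of the HIF site, on either strand (CACGT and CACGC when on the other strand). The windows lie at chr7:138909507-138909756 (minus strand) for *Bnip3*, chr8:45999851-46000100 (minus strand) for *Ankrd37*, chr2:71872974-71873223 (plus strand) for *Pdk1* start 1 and chr7:110627407-110627656 (plus strand) for *Adm*.
Bnip3: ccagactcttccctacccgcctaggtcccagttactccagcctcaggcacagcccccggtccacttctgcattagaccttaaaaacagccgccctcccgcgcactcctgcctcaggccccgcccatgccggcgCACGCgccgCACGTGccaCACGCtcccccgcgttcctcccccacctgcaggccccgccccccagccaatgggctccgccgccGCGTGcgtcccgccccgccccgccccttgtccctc
Ankrd37: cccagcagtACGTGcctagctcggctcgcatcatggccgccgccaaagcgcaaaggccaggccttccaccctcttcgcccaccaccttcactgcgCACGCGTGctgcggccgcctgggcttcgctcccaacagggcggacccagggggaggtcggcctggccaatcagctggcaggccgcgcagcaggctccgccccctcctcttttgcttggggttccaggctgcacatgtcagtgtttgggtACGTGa
Pdk1: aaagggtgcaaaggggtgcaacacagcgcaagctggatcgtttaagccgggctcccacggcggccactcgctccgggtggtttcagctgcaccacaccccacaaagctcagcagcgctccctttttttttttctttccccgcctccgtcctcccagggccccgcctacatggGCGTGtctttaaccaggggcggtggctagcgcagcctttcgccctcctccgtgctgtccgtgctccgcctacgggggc
Adm: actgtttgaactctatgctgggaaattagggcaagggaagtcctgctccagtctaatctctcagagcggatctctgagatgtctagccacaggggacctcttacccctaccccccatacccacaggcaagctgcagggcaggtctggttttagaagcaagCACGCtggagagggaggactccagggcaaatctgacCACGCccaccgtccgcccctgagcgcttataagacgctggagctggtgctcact

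The core was found 5 times before *Bnip3*, 4 times before *Ankrd37*, 3 times before *Hif1a* and 2 times each before *Egln1* and *Adm*, where a palindrome such as CACGTG counts on both strands. *Pdk1* start 1, *Car9* and *Egln3* held 1 match each. *Vegfa* had no match at start 1 and 2 at start 2, and *Pdk1* start 2 had none. In all, 9 of the 11 windows (81.8%) held the core, against 38.6% of 32851 windows over all genes and 56.4% of 11791 windows of genes that reached the mean of 1 FPKM. For 3 of the 11 (*Egln3*, *Hif1a* and *Vegfa* start 2) the bases after the start were not found as 1 stretch in a GENCODE M21 transcript of the gene, and 6 of the other 8 windows held the core. The median GC content was 59.6% in the 11 windows, 52.4% over all windows and 60.4% in those of expressed genes. TTCNNNGAA, the palindrome bound by STAT dimers, was in 0 of the 11 windows and in 7.02% of all windows. *Pdk1*, with 1 match at start 1, was lower at E14 and *Hif1a*, with 3, was nearly level, so the number of matches did not order the genes by their stage ratios. A match is a stretch of letters and was not tested as a binding site.

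**Figure D2:**
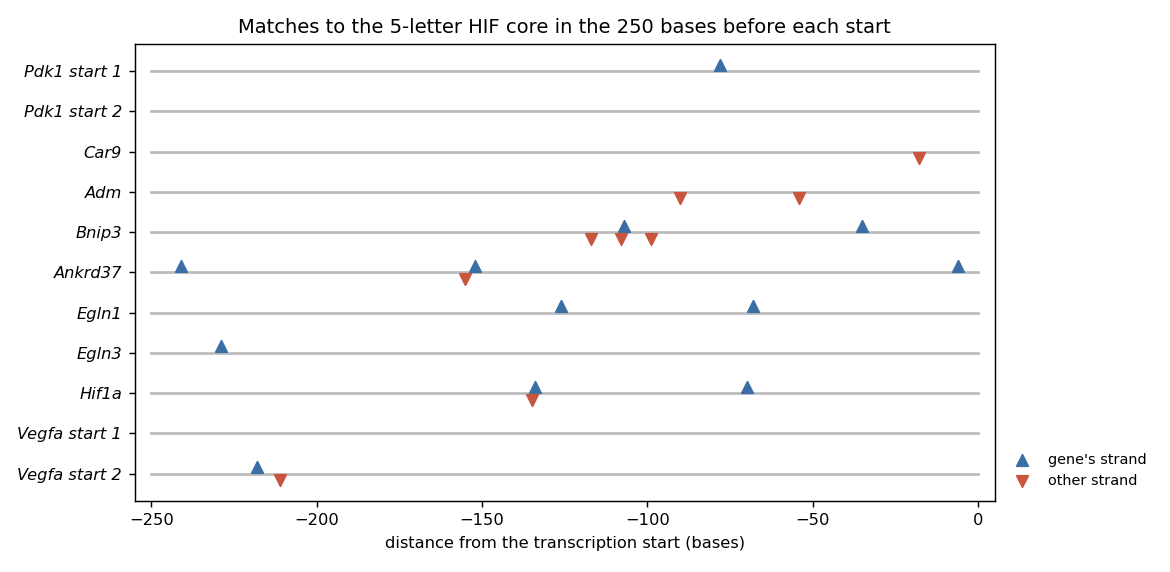
Positions of ACGTG or GCGTG in the 250 bases before each start, with the distance from the transcription start in bases on the horizontal axis and 1 line per window for the 9 genes with a window. Upward triangles are matches on the strand of the gene and downward triangles on the other strand; *Bnip3* holds 5 matches, and *Vegfa* start 1 and *Pdk1* start 2 hold none.

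The first group senses oxygen. *Hif1a*, listed at chr12:75008853-75048517 in the expression tables, whose genome build is not stated for these coordinates, was at 70.5 (CTL) and 74.9 FPKM (*Stat3* cKO) at E11 and 75.2 and 69.3 FPKM at E14. All 4 libraries lay close together, and *Hif1a* was the most abundant of the 10 genes in 3 of them, second to *Vegfa* in E11 CTL. The genotype log2 ratio (*Stat3* cKO over CTL) was 0.09 at E11 and -0.12 at E14. The stage log2 ratio (E14 over E11) was -0.11 in *Stat3* cKO and 0.09 in CTL, where it turned to -0.12 once the median of all genes was set to 0. *Hif1a* shares 330 of its 5896 exon bases with the antisense gene *Gm15283* and 148 with *Gm49321* on its own strand. The reads of *Gm15283* cannot be told apart without the strand, and those of *Gm49321* not even with it.

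*Egln1* encodes PHD2, the main hydroxylase that marks HIF-1 alpha in normal oxygen. Its level was 23.96 FPKM for CTL and 31.6 FPKM for *Stat3* cKO at E11, then 33.3 and 22.5 at E14, listed at chr8:127432486-127473154. E11 *Stat3* cKO and E14 CTL were the high libraries, so the genotypes changed places between the stages. The genotype log2 ratio was 0.40 at E11 and -0.57 at E14, when the ratio was 0.675. The difference between these log2 ratios was -0.97, and 476 of 12419 genes had a lower one.

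*Egln3* encodes PHD3, a hydroxylase whose own transcript is induced by HIF in many cells. It was at 3.36 (CTL) and 4.97 FPKM (*Stat3* cKO) at E11 and 5.33 and 6.09 FPKM at E14, listed at chr12:55279967-55304861. *Stat3* cKO was the higher library at each stage, with log2 ratios of 0.57 at E11 and 0.19 at E14, and E14 was the higher stage in each genotype, with stage log2 ratios of 0.67 and 0.29. In each library *Egln1* exceeded *Egln3*, by 7.13-fold and 6.35-fold at E11 and 6.25-fold and 3.70-fold at E14. Thus the balance of PHD2 and PHD3 transcripts was lowest in E14 *Stat3* cKO. The third hydroxylase, *Egln2*, was above both, at 39.3, 47.4, 48.6 and 51.6 FPKM in the same order.

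The second group is secreted. *Vegfa*, the growth factor that draws vessels into the brain, was at 77.6 FPKM for CTL and 55.5 FPKM for *Stat3* cKO at E11, then 12.4 and 12.8 at E14, listed at chr17:46153942-46169326. Both E14 libraries lay far below both E11 libraries, and the E14 pair was nearly level. E14 was 6.26-fold below E11 in CTL and 4.33-fold below it in *Stat3* cKO, where 510 of 12430 and 624 of 12426 genes had a lower ratio. The genotype log2 ratio was -0.48 at E11 and 0.05 at E14. In a bulk sample, fewer cells that make a transcript and less of it per cell cannot be told apart, and the mesenchymal markers moved in the same direction as *Vegfa* between the stages.

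Of the relatives and receptors of *Vegfa* that were counted, *Vegfc*, *Kdr*, *Nrp1* and *Nrp2* were lower at E14 in both genotypes, as *Vegfa* was, while *Vegfb* and *Pgf* were higher. *Vegfb* was at 8.75 and 10.5 FPKM at E11 and at 13.6 and 15.2 at E14, in CTL and *Stat3* cKO respectively, while *Vegfc*, a lymphatic growth factor, was at 5.18 and 3.57 at E11 and at 1.52 and 1.49 at E14. The ratio of *Vegfa* to *Vegfb* within a library was 8.86 and 5.27 at E11 and 0.910 and 0.841 at E14. *Vegfa* thus outnumbered *Vegfb* at E11 and was slightly below it at E14, a comparison that no scaling of the libraries can alter. *Kdr*, the main signalling receptor of VEGFA, was low, at 1.56, 2.28, 0.146 and 0.262 FPKM. The endothelial markers summed to 3.41, 2.87, 1.28 and 1.89 FPKM in the same order, and their part in the *Kdr* values was not tested. *Nrp2*, a neuropilin co-receptor also used by semaphorins, was at 64.3 and 59.3 FPKM at E11 and at 9.74 and 8.29 at E14, and *Nrp1* at 19.9 and 11.7 and then at 11.3 and 8.57.

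*Adm* encodes adrenomedullin, a vasodilator peptide. Its level was 3.29 (CTL) and 3.62 FPKM (*Stat3* cKO) at E11 and 4.61 and 1.19 FPKM at E14, listed at chr7:117771182-117773333. E14 *Stat3* cKO stood apart as the low library, and the others ran from 3.29 to 4.61 FPKM. At E14 the ratio of *Stat3* cKO to CTL was 0.258, from about 74 and 261 fragments, with a 95% counting interval of 0.195 to 0.332 (exact Clopper-Pearson, counting error only). Of 12430 genes, 30 had a lower ratio. With 1 FPKM added to each value the log2 ratio was -1.36 in place of -1.96, still past 2-fold.

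At E11 the ratio for *Adm* was 1.10, with a counting interval of 0.906 to 1.34, so no difference was detectable at this depth. Its stage log2 ratio was 0.48 for CTL but -1.61 for *Stat3* cKO. The genotype log2 ratio at E14 minus that at E11 was -2.09, and 30 of 12419 genes had a lower difference. The Y-linked transcript *Ddx3y* was at 0.0569 FPKM in the CTL library of E14 and at 25.1 in its *Stat3* cKO library, and at 0 in both E11 libraries, so the sex of the embryos cannot be told apart from the genotype at E14, nor from the stage in the *Stat3* cKO cells. *Calcrl*, the receptor through which adrenomedullin acts, was at 14.1, 11.5, 8.82 and 6.60 FPKM. Its partner *Ramp2*, which makes the receptor selective for adrenomedullin, was at 16.4, 26.1, 5.59 and 3.70 FPKM. *Ramp1*, which turns the same receptor towards CGRP, was at 0.258, 0.169, 9.82 and 15.98 FPKM, so the more abundant partner was *Ramp2* at E11 and *Ramp1* at E14 in both genotypes.

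The third group acts on mitochondria. *Pdk1* encodes a pyruvate dehydrogenase kinase that holds pyruvate back from the TCA cycle. It was at 13.7 FPKM for CTL and 17.3 FPKM for *Stat3* cKO at E11, then 7.62 and 10.04 at E14, listed at chr2:71711328-71741915. Both E14 libraries were below both E11 libraries, and *Stat3* cKO was the higher library at each stage, with log2 ratios of 0.33 and 0.40. E14 was 1.80-fold below E11 in CTL and 1.72-fold below it in *Stat3* cKO. The CTL value passed 2-fold, at a log2 ratio of -1.06, once the median of all genes was set to 0. Of the other kinases of the family, *Pdk3* was at 17.5, 22.6, 17.6 and 16.2 FPKM and *Pdk2* at 1.82, 1.95, 0.846 and 1.66. *Pdk2* was thus 2.15-fold lower at E14 in CTL, where *Pdk1* was lower too, while *Pdk3* was level. *Pdk4* stayed under the counting minimum, at 0.241, 0.241, 0.332 and 1.501 FPKM, and was highest in E14 *Stat3* cKO.

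*Bnip3* encodes a receptor in the outer mitochondrial membrane that marks mitochondria for autophagy. Its level was 47.8 (CTL) and 57.9 FPKM (*Stat3* cKO) at E11 and 20.6 and 28.5 FPKM at E14, listed at chr7:146082518-146101189. The order of the libraries was that of *Pdk1*: E11 above E14 and, within a stage, *Stat3* cKO above CTL, with log2 ratios of 0.27 at E11 and 0.47 at E14. E14 was 2.33-fold below E11 in CTL and 2.03-fold below it in *Stat3* cKO, and the *Stat3* cKO value fell just short of 2-fold with 1 FPKM added. *Bnip3l*, which encodes the related receptor NIX, was at 59.5, 70.1, 59.2 and 63.5 FPKM. The ratio of *Bnip3* to *Bnip3l* was 0.804, 0.825, 0.347 and 0.448, so the pair was nearly balanced at E11 and *Bnip3l* led at E14. *Bnip3* shares 504 of 2265 exon bases with the antisense gene *Gm45507*.

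*Car9* encodes a carbonic anhydrase of the cell surface that is among the most strongly HIF-dependent genes in tumour cells. It was at 0.169 FPKM for CTL and 0.252 FPKM for *Stat3* cKO at E11, then 0.0121 and 0.0230 at E14, or about 18, 20, 1 and 2 fragments, listed at chr4:43519897-43526597. It was scarce in every library and lowest at E14, and 214 of its 2304 exon bases are shared with the antisense gene *Gm12454*, whose reads cannot be told apart. The E14 level was 0.0715 times the E11 level in CTL, with a counting interval of 0.0017 to 0.449, and 0.0914 in *Stat3* cKO, with 0.00962 to 0.349. No genotype difference was detectable at this depth, with counting intervals of 0.758 to 3.03 at E11 and 0.0940 to 107 at E14.

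The other carbonic anhydrases went both ways between the stages. *Car3* was at 0.317 and 0.539 FPKM at E11 and at 95.9 and 48.1 at E14, *Car2*, a cytosolic isoform, at 0.701 and 0.723 and then 26.8 and 17.9, and *Car8*, which lacks catalytic activity, at 1.02 and 1.06 and then 25.9 and 18.1, in CTL and *Stat3* cKO respectively. These 3 were thus at about 1 FPKM or less at E11 and abundant at E14. As with *Car9*, E14 was below E11 in both genotypes for *Car11*, which went from 16.1 and 18.8 FPKM to 4.62 and 6.22, for *Car14*, from 6.01 and 5.58 to 2.47 and 4.34, and for *Car13*, from 3.60 and 3.40 to 2.78 and 1.57.

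*Ndrg1* encodes a cytoplasmic protein induced by low oxygen and by differentiation, and in the adult nervous system it is a protein of myelinating cells. Its level was 2.26 (CTL) and 1.38 FPKM (*Stat3* cKO) at E11 and 13.6 and 10.9 FPKM at E14, listed at chr15:66760879-66801203. It was the only one of the 9 counted genes to be 2-fold higher at E14, by 6.04-fold in CTL and 7.94-fold in *Stat3* cKO, or a log2 ratio of 2.99, which was 2.33 with 1 FPKM added. Of all genes, 14.6% were 2-fold higher at E14 in CTL and 10.1% in *Stat3* cKO. CTL was the higher library at each stage, with log2 ratios of *Stat3* cKO to CTL of -0.71 at E11 and -0.32 at E14. The counting interval of the E11 ratio, 0.516 to 0.717, lay below 1. *Ndrg1* shares exon bases with the antisense gene *Gm17035* (419 of 6596) and with *Gm2895* (137).

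All 3 of its relatives were also higher at E14. *Ndrg2*, a marker of astrocytes and their precursors, was at 5.39, 6.13, 54.3 and 135 FPKM, so at E14 it was higher in *Stat3* cKO (log2 ratio 1.31) while *Ndrg1* was lower. The ratio of *Ndrg1* to *Ndrg2* within a library was 0.418, 0.225, 0.251 and 0.0811. *Ndrg3* had stage log2 ratios of 0.85 (CTL) and 0.84 (*Stat3* cKO), and *Ndrg4* had 1.01 and 0.94.

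*Ankrd37* encodes a small ankyrin repeat protein and is a direct target of HIF-1. It was at 6.42 FPKM for CTL and 8.82 FPKM for *Stat3* cKO at E11, then 2.78 and 5.08 at E14, listed at chr8:47082261-47085204. The order of the libraries was again that of *Pdk1* and *Bnip3*. *Stat3* cKO was 1.37-fold above CTL at E11 and 1.83-fold at E14, with counting intervals of 1.17 to 1.61 and 1.44 to 2.33. E14 was 2.31-fold below E11 in CTL, which came to a log2 ratio of -0.97 with 1 FPKM added, and 1.74-fold below it in *Stat3* cKO. Its exons overlap those of *Lrp2bp* (349 of 1539 bases) and *Ufsp2* (57) on the other strand, so part of its level may be theirs and cannot be told apart.

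**Figure D3:**
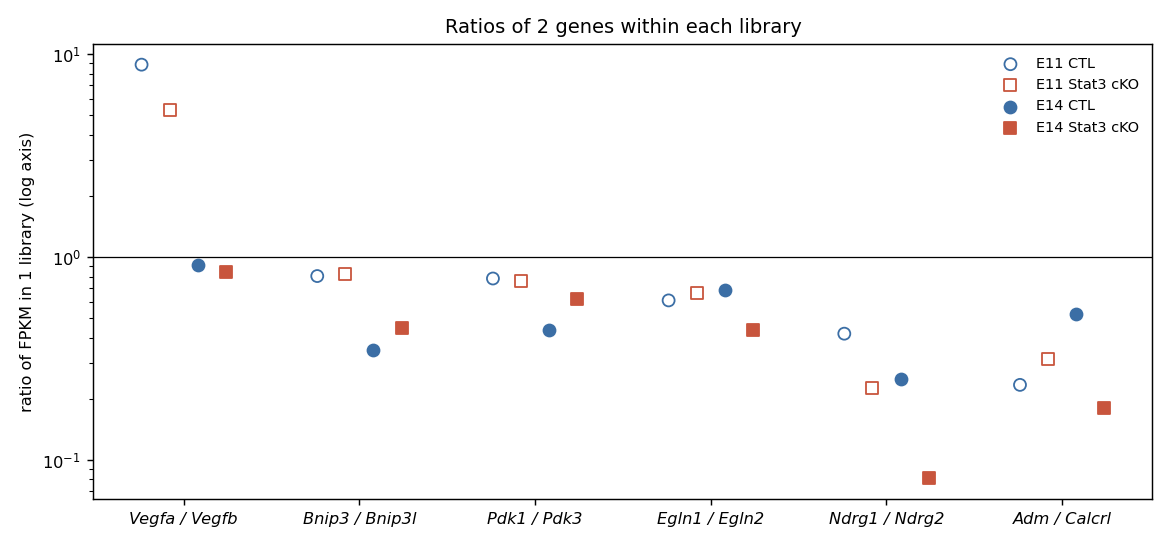
Ratio of the FPKM of 2 genes within each library, on a log axis, with open symbols for E11, filled symbols for E14, circles for CTL and squares for *Stat3* cKO; the line at 1 marks equal levels. *Vegfa* over *Vegfb* went from 8.86 and 5.27 at E11 to 0.910 and 0.841 at E14, and *Adm* over *Calcrl* was highest in E14 CTL (0.522) and lowest in E14 *Stat3* cKO (0.180).

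Counted over the 9 genes, the comparison of genotypes at E11 had 0 genes higher by 2-fold or more and 0 lower, where 0.209% and 1.12% of 12430 genes were. The median log2 ratio of the 9 was 0.27, against 0.06 over all genes, with 7 of the 9 above 0 and 61.8% of all genes. *Egln3* (0.57), *Ankrd37* (0.46) and *Egln1* (0.40) were furthest up, and *Ndrg1* (-0.71) and *Vegfa* (-0.48) were below 0. The 4 erythroid markers summed to 25.4 FPKM in E11 CTL and 3.63 in E11 *Stat3* cKO. Their part in these ratios, and in the E11 genotype ratios of the lists below, was not tested.

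At E14, 0 of the 9 were 2-fold higher and 1, *Adm*, was at least 2-fold lower in *Stat3* cKO, where 1.85% and 1.69% of all genes were. The median was 0.05 against -0.08 over all genes, and 5 of the 9 were above 0 against 39.9% of all genes. *Ankrd37* (0.87), *Bnip3* (0.47) and *Pdk1* (0.40) were furthest up, and *Adm* (-1.96), *Egln1* (-0.57) and *Ndrg1* (-0.32) furthest down. All 6 neuron markers were below 0 in the same comparison (median -0.32), summing to 998 FPKM for CTL and 852 for *Stat3* cKO, and 8 of 10 progenitor markers were above 0 (median 0.37), summing to 7332 and 7979. *Fabp7* alone made up 5245 and 5929 FPKM of the progenitor sums. None of either list was at 0, and their part in these ratios was not tested. The genes above 0 at both stages were *Egln3*, *Ankrd37*, *Pdk1* and *Bnip3*, and *Ndrg1* alone was below 0 at both.

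From E11 to E14, 1 gene (*Ndrg1*) was 2-fold higher and 3 (*Vegfa*, *Bnip3* and *Ankrd37*) at least 2-fold lower in CTL, where 14.6% and 12.5% of all genes were. The median of the 9 was 0.09 against 0.21 over all genes, and it turned to -0.12 after centring all genes on 0. Above 0 were 5 of the 9 and 60.5% of all genes. The number of all genes past 2-fold was 1820 higher and 1548 lower as deposited, 1210 and 1901 after centring all genes on a median of 0, and 1145 and 1952 with upper-quartile scaling. In *Stat3* cKO, 1 gene (*Ndrg1*) was 2-fold higher and 3 (*Vegfa*, *Adm* and *Bnip3*) at least 2-fold lower, where 10.1% and 11.7% of all genes were, the median was -0.78 against 0.06, and 2 of the 9 were above 0 against 53.3% of all genes. With 9 genes these counts are too small to set the genes apart from the shares over all genes. Each library enters both a genotype and a stage ratio, so the comparisons are not independent.

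**Figure D4:**
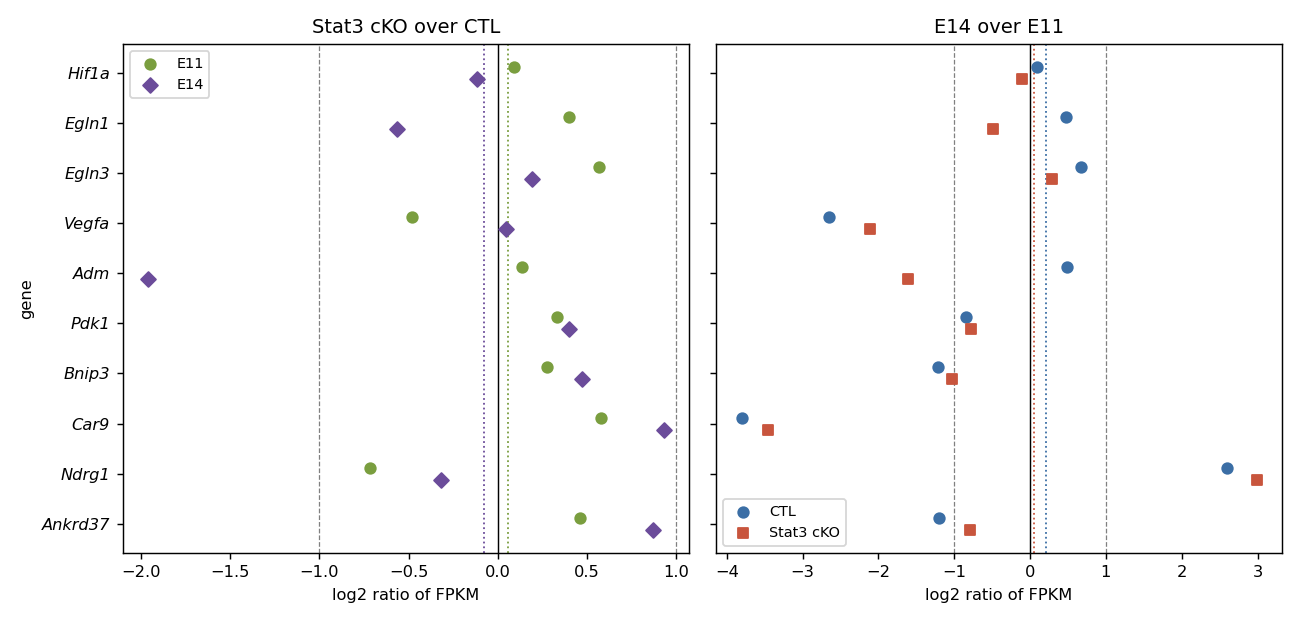
Log2 ratio of FPKM for each of the 10 genes, *Stat3* cKO over CTL on the left (E11 circles, E14 diamonds) and E14 over E11 on the right (CTL circles, *Stat3* cKO squares), each point from 2 libraries. Dashed lines mark 2-fold and dotted lines the median of all genes; on the left *Adm* at E14 (-1.96) lies alone beyond 2-fold, and on the right *Vegfa* and *Ndrg1* lie at opposite ends of the counted genes.

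The wider pathway was read from lists of further HIF genes. Of 19 HIF subunits and regulators, 17 were counted. None differed 2-fold between the genotypes, where 0.209% of all genes were higher and 1.12% lower at E11, and 1.85% and 1.69% at E14. The median log2 ratio was -0.02 at E11 and 0.01 at E14, against 0.06 and -0.08 over all genes. Between the stages 1 was 2-fold higher and 4 lower in CTL (14.6% and 12.5% of all genes), and 0 and 2 in *Stat3* cKO (10.1% and 11.7%). *Arnt*, the beta subunit, was at 6.77, 8.60, 2.78 and 2.96 FPKM, and *Hif1an*, the asparagine hydroxylase that blocks the transactivation domain of HIF alpha, at 7.74, 9.87, 3.19 and 3.26. *Arnt2*, the beta subunit prevalent in neural cells, was at 26.7, 25.1, 20.2 and 22.4 FPKM, above *Arnt* in each library. *Hif1a* exceeded *Arnt* by 10.4-fold and 8.72-fold at E11 and by 27.1-fold and 23.4-fold at E14, in CTL and *Stat3* cKO respectively. *Tceb1*, an elongin of the VHL complex, had a stage log2 ratio of 1.03 for CTL and 0.31 for *Stat3* cKO. *Epas1*, which encodes HIF-2 alpha, stayed between 0.0490 and 0.285 FPKM.

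All 24 glycolytic targets were counted. At E11, 22 of them were above 0 in *Stat3* cKO over CTL, as were 61.8% of all genes, and the median was 0.31 against 0.06 over all genes, while none was 2-fold higher and 1, the phosphofructokinase gene *Pfkp* (-1.04), was at least 2-fold lower (0.209% and 1.12% of all genes). At E14 the median was -0.05 against -0.08 over all genes, with 8 above 0, where 39.9% of all genes were, and with 1 gene 2-fold higher and 1 lower (1.85% and 1.69% of all genes). *Slc16a3*, a lactate exporter, was at 9.56, 13.7, 0.796 and 1.92 FPKM, so *Stat3* cKO was above CTL at E14 (log2 ratio 1.27) and E14 was far below E11 in both genotypes. *Hk2*, a hexokinase bound to mitochondria, was at 9.74, 13.7, 9.02 and 3.70 FPKM, with a log2 ratio of -1.29 at E14. As with *Adm*, the low library of *Hk2* was E14 *Stat3* cKO. *Aldoc*, the aldolase of astrocytes and their precursors, was at 2.69, 2.93, 193 and 235 FPKM. From E11 to E14, 2 of the 24 were 2-fold higher and 2 lower in CTL (14.6% and 12.5% of all genes), and 1 and 4 in *Stat3* cKO (10.1% and 11.7%), with medians of -0.07 and -0.20.

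Of 41 other HIF targets, 37 were counted. Between the genotypes, 0 were 2-fold higher and 1 lower at E11 (0.209% and 1.12% of all genes), and 2 higher and 4 lower at E14 (1.85% and 1.69%), with medians of 0.11 and -0.14. *Igfbp3*, which binds insulin-like growth factors, was at 9.43 (CTL) and 2.74 FPKM (*Stat3* cKO) at E11 and 82.1 and 21.8 FPKM at E14, so CTL was the higher library at both stages, with log2 ratios of -1.78 and -1.91. *Trf*, encoding the iron carrier transferrin, was at 2.96, 1.81, 10.02 and 4.01 FPKM, with -1.32 at E14. *Ak4*, a mitochondrial adenylate kinase, was at 7.05, 9.36, 16.4 and 7.42 FPKM, with -1.14 at E14. Higher in *Stat3* cKO at E14 were *Angptl4*, an inhibitor of lipoprotein lipase, at 6.42, 6.91, 0.582 and 2.29 FPKM, and *Ddit4*, an inhibitor of mTORC1, at 72.4, 91.6, 25.8 and 55.9. The targets that passed 2-fold at E14 therefore went both ways.

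Between the stages, 15 of these 37 targets were at least 2-fold lower at E14 and 5 higher in CTL, where 12.5% and 14.6% of all genes were. In *Stat3* cKO 13 were lower and 2 higher, where 11.7% and 10.1% of all genes were. The medians were -0.42 and -0.45, against 0.21 and 0.06 over all genes, and the CTL count of all genes lower by 2-fold went from 1548 to 1901 after centring and to 1952 with upper-quartile scaling. *Lox*, which crosslinks collagen, was at 58.5 and 68.1 FPKM at E11 and at 0.217 and 0.197 at E14. Its relative *Loxl2* had stage log2 ratios of -4.17 (CTL) and -3.70 (*Stat3* cKO), and *P4ha2*, a collagen prolyl hydroxylase, had -2.64 in *Stat3* cKO. These 3 genes act on collagen, and the mesenchymal markers moved with them. The receptors, 7 of 8 counted, had 3 at least 2-fold lower in each genotype, with medians of -0.82 and -0.81, while 1 was higher in CTL and 2 were in the *Stat3* cKO cells (12.5% and 11.7% of all genes were lower, and 14.6% and 10.1% higher). These counts include *Kdr*, which reached the mean of 1 FPKM through its E11 values, and *Ramp1*, which reached it through its E14 values. Their calls thus depend in part on the minimum.

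Among the families of the 10 genes, 19 of 27 members were counted. At E14, 2 exceeded CTL by 2-fold or more in *Stat3* cKO, *Car5b*, a mitochondrial carbonic anhydrase (1.45), and *Ndrg2* (1.31), and 0 were lower (1.85% and 1.69% of all genes), and at E11 none passed 2-fold in either direction (0.209% higher and 1.12% lower over all genes). From E11 to E14, 6 were 2-fold higher and 4 lower in CTL (14.6% and 12.5% of all genes), and 6 higher and 3 lower in the *Stat3* cKO cells (10.1% and 11.7%).

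**Figure D5:**
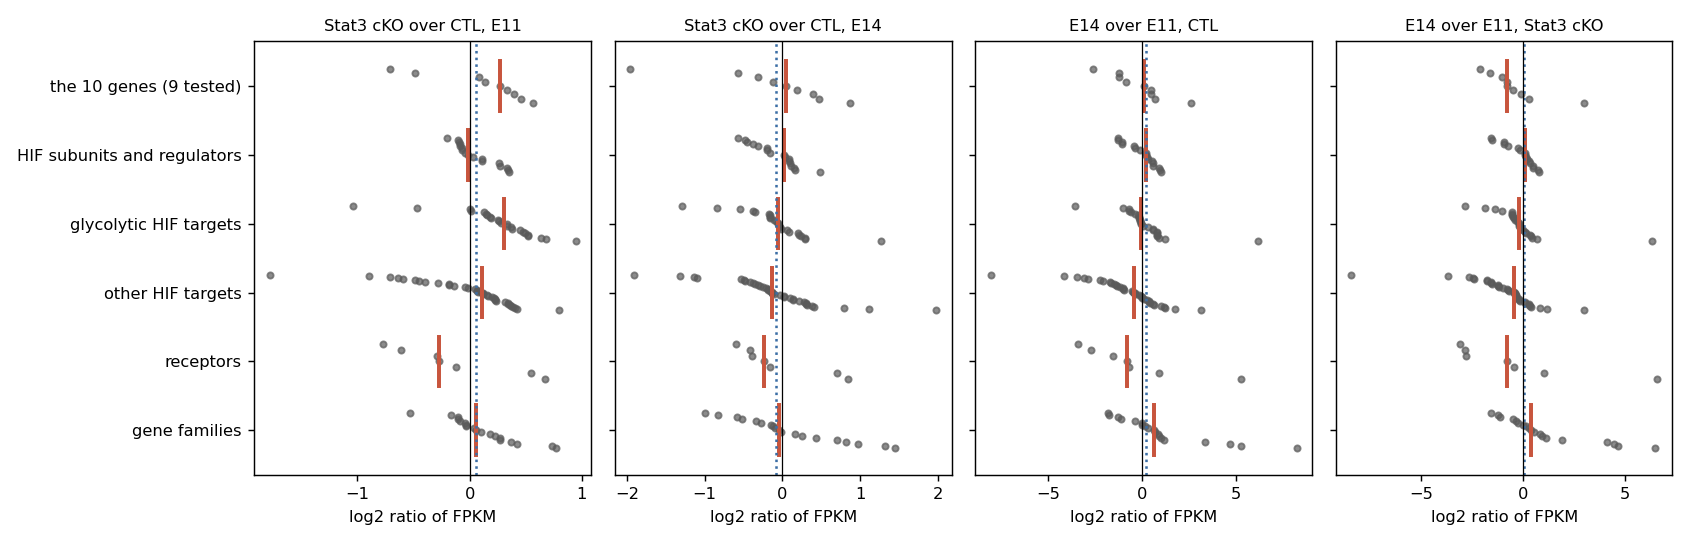
Log2 ratio of FPKM for every counted gene (grey points) of the 10 genes and of 5 further lists, in the 4 comparisons, each with its own axis. Red bars are list medians and the dotted line is the median of all genes; the glycolytic targets had a median of 0.31 in *Stat3* cKO over CTL at E11 and -0.05 at E14, and the other targets lay at -0.42 and -0.45 in E14 over E11.

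The median profile of the 9 counted genes over the 4 libraries was 0.21, 0.35, 0.05 and -0.21, as log2 FPKM centred on each gene. Of 9184 other genes with a mean of 5 FPKM or more and no value of 0, the nearest to it by Euclidean distance were *Tgs1*, *Cpd*, *Pum2*, *Papd5* and *Tial1*, at distances from 0.204 to 0.207. *Tgs1* was at 6.59 FPKM for CTL and 7.27 FPKM for *Stat3* cKO at E11, then 5.94 and 4.92 at E14. None of these 5 belongs to the HIF lists. With 4 points, such likeness is a description and no more.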

How the data were processed

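RNA was extracted with Trizol and sequenced on a Illumina HiSeq, and reads were passed through FastQC, TopHat and Cufflinks. The authors deposited 1 table per library with FPKM values and no counts, and the submitters' processing notes name Bowtie 0.12.2 and the builds mm8 and mm9 without a role. Whether counting used strand is not given in the sources used here. The 140 entries that join several symbols kept their joint name.

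From the deposited FPKM, plain ratios were computed with Python 3.11.15, numpy 2.4.6, pandas 2.3.3 and scipy 1.17.1 for genes whose mean was 1 FPKM or more, with a value above 0 in both libraries, and 2-fold was the threshold. A gene could reach that mean through the stage where it was high, and the 2-fold counts between the stages include such genes. The ratio step was tested on simulated data. Depth was estimated from the smallest values of transcripts over 1500 bases (GENCODE M21), and fragments per gene from it, with 95% exact Clopper-Pearson intervals that cover counting error only. Promoters came from RefSeq (GRCm38.p6).

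The members and the 11 further lists were chosen with earlier results of these data known. The text names the 10 genes, *Stat3*, some of their relatives and receptors, the 5 genes of nearest profile, and from each list some of the up to 3 genes furthest past 2-fold in each direction and comparison. Which relatives, receptors and list genes to print, *Arnt2*, *Epas1*, *Ddx3y* and the pairs set in ratio within a library were chosen after their values were seen. The alternatives were a pseudocount, 2 other scalings, and other minimums.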

Additional observations from a re-analysis of the deposited data

Results flagged for a closer look

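In 4 genes the log2 ratio of *Stat3* cKO to CTL had opposite signs at the stages. It was 0.088 at E11 and -0.12 at E14 for *Hif1a*, 0.40 and -0.57 for *Egln1*, -0.48 and 0.048 for *Vegfa*, and 0.14 and -1.96 for *Adm*. Over all genes 61.8% were above 0 at E11 and 39.9% at E14. The share of all genes with opposite signs was not counted, so this count cannot be set apart from it. In 3 genes the log2 ratio of E14 to E11 had opposite signs in the genotypes. It was 0.094 in CTL and -0.11 in *Stat3* cKO for *Hif1a*, 0.48 and -0.49 for *Egln1*, and 0.48 and -1.61 for *Adm*. The opposite signs of *Hif1a* depended on the scaling. After centring all genes on 0 its values were -0.12 (CTL) and -0.17 (*Stat3* cKO). With upper-quartile scaling they were -0.15 and -0.20. Of all genes, 60.5% (CTL) and 53.3% (*Stat3* cKO) had a stage ratio above 0. How many of them changed sign between the genotypes was not counted, so this count cannot be set apart either. Each value compares 1 library with 1 library, both sets of ratios come from the same 4 libraries, and the difference was not tested.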

How the results depend on the processing

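Adding 0.1 or 1 FPKM, setting the median of all genes to 0, upper-quartile scaling, no minimum and a minimum of 5 FPKM gave 72 alternative values for the medians and 2-fold counts of the 10 genes, of which 67 stayed within 0.1 on the log2 scale (medians) or within 1.5 times (counts) of the reported value and 5 did not. In CTL, the median log2 ratio between the stages, 0.09 as reported, was -0.12 after centring all genes on 0, -0.15 with upper-quartile scaling, -0.38 with no minimum (10 genes) and -0.85 with a minimum of 5 FPKM (7 genes), so its sign changed in 4 of 6 alternatives. These scalings moved the median of all genes in that comparison by -0.21 and -0.24. The number of genes at least 2-fold lower in *Stat3* cKO at E14 was 0 with a minimum of 5 FPKM, since *Adm* then had too low a mean, against 1 as reported. The number lower at E14 than at E11, 3 in each genotype as reported, ranged from 2 to 4. Of 40 ratios of single genes, 39 kept their sign in every alternative run for them, and *Hif1a* from E11 to E14 in CTL did not. Only the 2 scalings could change a sign, since adding the same value to both libraries or changing the minimum cannot. With the minimum of 5 FPKM, *Egln3*, *Adm* and *Car9* were left out. The side of 2-fold was kept by 34, and the exceptions were ratios of *Pdk1*, *Bnip3*, *Ankrd37* and *Car9*. No paired analysis was run, and each group had 1 library. The same lack of replicates limits every value here, and depth limits *Car9* and, less so, *Adm*.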
